A study of Caenorhabditis elegans with 16 samples.

Results

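The 34 genes described here encode proteins that copy chromosomal DNA in the nematode Caenorhabditis elegans and enzymes that supply its nucleotides. They were chosen by gene symbol, as written in the deposited tables, and are 34 of the 46536 genes listed there. The rule itself used no measured value. RNA was sequenced from dissected germline tumors in 4 groups of 4 libraries each. The control group had 0 h of auxin, and the others were treated with auxin at 1 mM for 2 h, 4 h or 48 h before dissection. All animals, controls included, were of the Bristol strain and carried the glp-1 allele ar202, gld-2(q497) together with gld-1(q485), lag-1(oz536oz537), and as a transgene ieSi64[gld-1p::tir1::mRuby]. They were described as adults of 1 day that had grown for 48 h at 25 °C from synchronised larvae. In germ cells the Notch receptor GLP-1 acts through LAG-1, which binds DNA, and this pathway holds off meiosis, which GLD-1 and GLD-2 favour. TIR1 is a plant auxin receptor that directs the breakdown of degron-tagged proteins when auxin is present, and here it was driven by the gld-1 promoter. What the lag-1 allele changes is not described in the labels, and no group combined auxin with an unaltered lag-1 gene. The values were deposited as 2 separately normalised tables, one with the 4 control, 4 of the 48 h and 2 of the 2 h libraries, the other with the 4 h and the other 2 h libraries. Groups were therefore compared only within a table.

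Replication begins when the origin recognition complex, CDC-6 and CDT-1 load the MCM helicase ring onto DNA. GINS joins the ring to make an active helicase, primase with polymerase alpha starts each strand, RPA coats the unwound strands, and the PCNA clamp, placed by replication factor C, holds polymerases on the template. Ribonucleotide reductase, thymidylate synthase and dUTPase keep up the supply of DNA precursors. In the worm germline, dividing germ cells and cells entering meiosis replicate their DNA and use these proteins.

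Libraries held 17760706 to 33888940 reads over all genes, 8929146 to 20599885 of them in genes that encode proteins. Of the 10 libraries of the larger table, 3 stood apart. Ribosomal RNA took 44.9% of the reads in 48 h library 1, 53.3% in control library 1 and 51.7% in control library 3, against 32.2% to 36.2% in the other 7. With each library scaled to a common median and each gene taken relative to its own mean, the coding genes with the longest transcripts minus those with the shortest (outer quintiles, median log2 value) came to -0.48 in 48 h library 1, -0.78 in control library 1 and -0.64 in control library 3, against -0.02 to 0.40 in the other 7. The tissue is labelled as germline tumors, and 10 germline markers summed to 1824 to 3714 CPM (reads scaled to a fixed library total) over all libraries, none at 0, whereas the 10 sperm markers summed to at most 11.8 CPM, with up to 6 of them at 0. Markers of intestine (11 genes) summed to at most 44.5 CPM, those of neurons (9 genes) to at most 63.1 CPM and those of cuticle and epidermis (10 genes) to at most 74.1 CPM. Several marker lists differed between groups of the larger table. The 21 meiotic prophase markers summed to 1001 to 1649 CPM in control, 1896 to 1937 CPM at 2 h and 1516 to 1914 CPM at 48 h, and limma called 5 of them higher at 48 h against control, 3 after scaling to a common median. The 10 oocyte and maternal markers summed to 684 to 1418 CPM at 48 h, against 487 to 1167 CPM in control, with 0 called (1, cpg-1, after that scaling). The 9 muscle markers summed to 56.2 to 114 CPM at 48 h, against 42.6 to 76.8 CPM in control. Among 8 tested, lev-11 and mup-2 were called higher, and lev-11 alone after that scaling. The 10 somatic gonad markers summed to 80.9 to 91.3 CPM at 48 h, against 50.9 to 65.0 CPM in control libraries. Among 5 tested, inx-8 and inx-9 were called higher, but neither after that scaling, when lin-3 was called instead. Of 8 neuron markers tested, unc-31 was called lower at 48 h, and egl-21 with it after that scaling. Of 7 cuticle and epidermis markers tested, nhr-23 was called higher on both scales, and dpy-9 lower after that scaling. The intestine marker lbp-6 was called higher, but not after that scaling. In the smaller table, limma called no marker of these lists between 4 h and 2 h before that scaling. After it, 4 of the 21 meiotic prophase markers (him-3, htp-1, htp-2 and htp-3) were called higher, against 1.22% of all genes. Called lower were cpg-2 and rme-2 of the oocyte and maternal list and snb-1 of the neuron list, against 1.0% of all genes. The part of these differences in the results on the replication genes was not tested.

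All 34 genes were read in every library, with 67 to 14874 reads per gene and library. Levels between genes were compared as CPM per kb of the longest annotated transcript, averaged over the 16 libraries. On that scale 30 of the 34 genes lay above 23.3 CPM per kb, the median of 6741 protein-coding genes with a mean of at least 1 CPM. The highest was pcn-1, the PCNA clamp, at 222 CPM per kb, 30.6 times psf-2, the lowest. It was followed by the single-strand binding subunits rpa-2 at 189 and rpa-1 at 165 CPM per kb.

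Among the genes of origin recognition and loading, orc-4 was at 52.0, the loader cdc-6 at 47.0, orc-1 at 46.5, orc-5 at 39.2, orc-3 at 31.8, orc-2 at 21.3 and the loader cdt-1 at 18.2 CPM per kb. The 6 subunits of the helicase ring were all above this set, with mcm-4 at 142, mcm-3 and mcm-6 both at 125, mcm-2 at 89.6, mcm-5 at 85.2 and mcm-7 at 77.7 CPM per kb. The replication factor mcm-10, which is not a ring subunit, was at 32.7 CPM per kb. Of the GINS subunits, psf-1 was at 45.1, psf-3 at 34.3, sld-5 at 27.7 and psf-2 at 7.26 CPM per kb. The small primase subunit pri-1 was at 43.6, div-1, the second subunit of polymerase alpha, at 37.7, and the large primase subunit pri-2 at 12.6 CPM per kb. The clamp loader genes were at 126 (rfc-4), 71.9 (rfc-3), 54.6 (rfc-2) and 51.6 (rfc-1) CPM per kb. The flap endonuclease crn-1 and the ligase lig-1 were at 61.8 and 60.3 CPM per kb. In nucleotide supply, the dUTPase dut-1 was at 136, the small and large subunits of ribonucleotide reductase, rnr-2 and rnr-1, at 111 and 90.6, and the thymidylate synthase tyms-1 at 26.9 CPM per kb. Subunits of a single complex thus differed in transcript level, and many neighbours in this order overlapped in their ranges over the libraries.

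**Figure D1:**
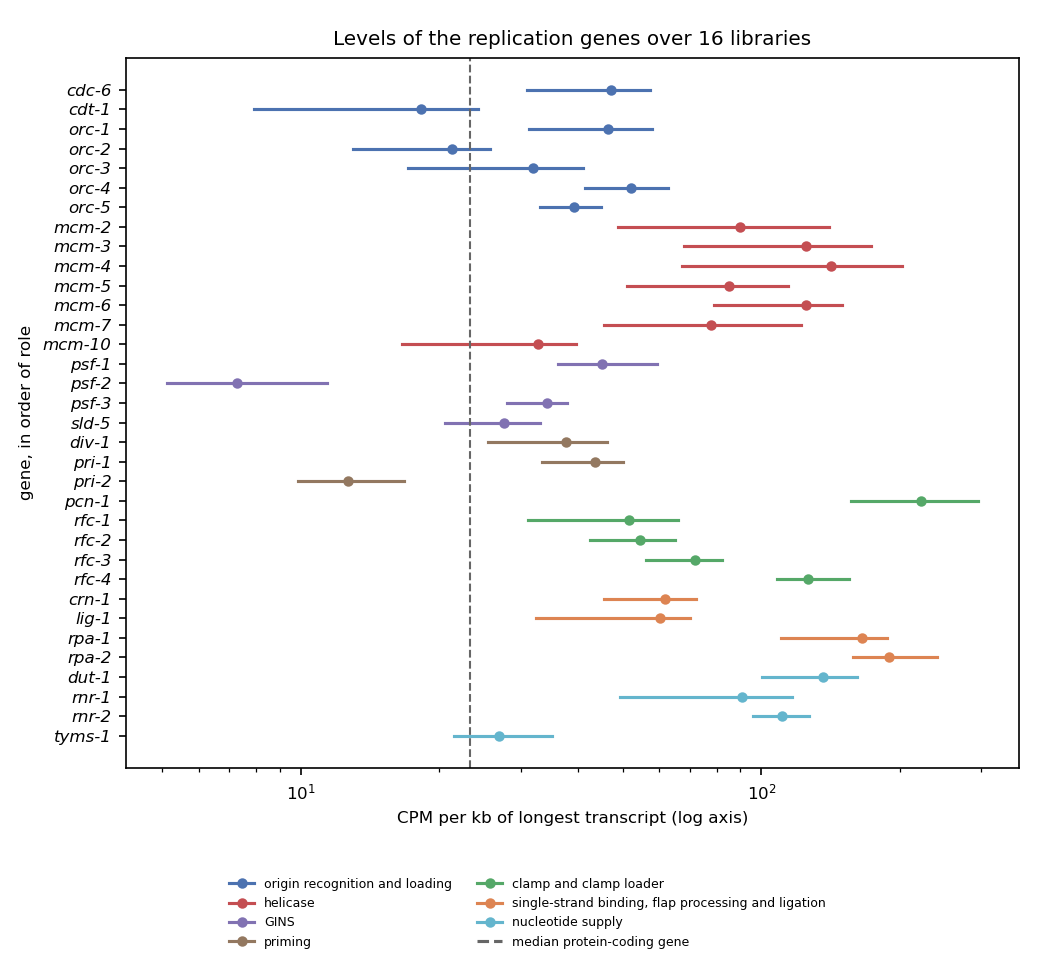
Level of each of the 34 genes in CPM per kb of the longest transcript (log axis), with the mean over 16 libraries as a point and the lowest and highest library as the ends of the line. The dashed line is the median protein-coding gene at 23.3 CPM per kb, and orc-2, cdt-1, pri-2 and psf-2 have their means below it.

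None of the genes lies on the X chromosome. In the WBcel235 annotation, 10 are on chromosome I, 4 on II, 11 on III, 4 on IV and 5 on V. The genes orc-1 and orc-4 are neighbours on the same strand of chromosome III, 112 bp apart. A protein-coding gene on the opposite strand overlaps 14 of the 34, taking whole gene spans with introns. Overlap with noncoding genes and overlap of exons alone were not checked. Since it is not given whether counting used the strand, reads of such pairs cannot be told apart where their exons overlap. These 14 are mcm-2, mcm-3, mcm-4, mcm-6, mcm-7, mcm-10, psf-1, psf-2, rfc-3, pri-2, div-1, rnr-2, rpa-2 and dut-1.

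The 3 libraries with most ribosomal RNA also had low values of most replication genes. Summed over the 34 genes, the 48 h libraries 1 to 4 had 4087, 5303, 5550 and 5487 CPM, and the control libraries 1 to 4 had 2915, 5025, 3119 and 4817 CPM. Scaled to the same total of protein-coding reads instead of all reads, the sums were 8130, 8659, 8593 and 8648 at 48 h. Those of the control libraries were 6927, 8030, 7073 and 7685. The groups did not overlap on this scale, but the lowest 48 h sum, 8130, lay just above the highest control sum, 8030. The lowest control sums, 6927 and 7073, came from control libraries 1 and 3, which were rich in ribosomal RNA. How often other sets of genes separate on this scale was not tested, so no rise of the 34 genes as a set was read from it. The summed helicase genes were low in the same 3 libraries, with 1427, 2298, 2393 and 2435 CPM at 48 h and 974, 2049, 1092 and 1933 CPM in control libraries. Within groups, the deficit was deeper in longer transcripts. Across the 34 genes, Spearman's rho between transcript length (612 to 2841 bp) and the log2 difference from the group's other libraries was -0.76 in 48 h library 1, -0.88 in control library 1 and -0.90 in control library 3. These are descriptions of single libraries across genes, which share the library and its depth. The gene cdt-1 was farthest below in both control libraries, by -1.42 and -1.09 (log2), while psf-1 was 0.07 above in control library 1.

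**Figure D2:**
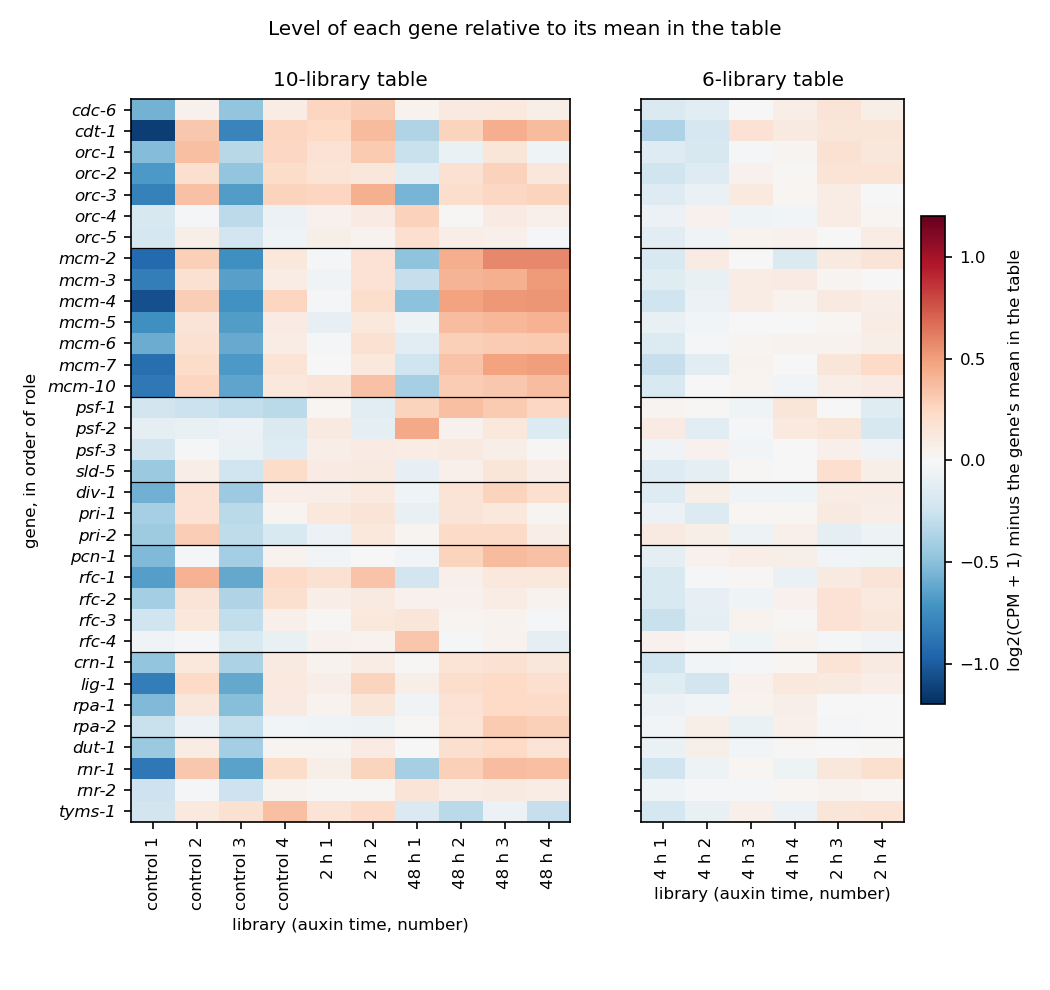
Level of each gene, as log2(CPM + 1) minus the gene's mean in the table, in the 10 libraries of the larger table (left) and the 6 of the smaller (right), with lines between the roles from origin recognition (top) to nucleotide supply (bottom). Control libraries 1 and 3 are low for most genes, and 48 h library 1 is low for the helicase genes. The gene psf-1 is below its mean in all 4 control libraries, and tyms-1 is below its mean in all 4 of the 48 h libraries and in control 1.

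After 48 h of auxin, 1 of the 34 genes was called higher and 0 were called lower against control, with a median log2 fold change of 0.31. Over all 7684 genes tested, 7.34% were called higher and 2.71% lower, and the median log2 fold change was 0.24, so the genes as a set sat near the shift of the whole table. The calls come from limma on log2(CPM + 1), at an adjusted p under 0.05 over all genes tested. At an unadjusted p under 0.05, 6 of the 34 and 2208 of all genes would pass. After each library was scaled to a common median (median centring), the median log2 fold change was 0.03 for the 34 genes and -0.01 for all genes, with 0 of the 34 called higher (4.84% of all genes) and 1 lower (6.44%). In bulk tissue, fewer cells that express a gene and less RNA per cell cannot be told apart.

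The gene that rose was psf-1, a subunit of GINS (WBGene00011275; chromosome II, 9968673 to 9969630 in WBcel235; 6 exons in a transcript of 668 bp). It had 37.0, 39.6, 38.3 and 36.5 CPM in the 48 h libraries and 26.1, 25.4, 24.7 and 24.1 CPM in the control libraries. Every 48 h library lay above every control library, including the libraries rich in ribosomal RNA. The means were 37.8 ± 1.39 CPM at 48 h and 25.09 ± 0.85 CPM in control (SD, n = 4 each), a log2 fold change of 0.57 ± 0.09 (SE; 95% interval 0.37 to 0.78; limma, adjusted p = 0.00536). Median centring ended this call, with 38.7, 36.2, 33.2 and 32.5 centred CPM at 48 h and 37.4, 23.7, 31.9 and 22.5 in control (0.30 ± 0.15, limma adjusted p = 0.248). With the trend on transcript length removed as well, psf-1 was again called (0.47 ± 0.07, limma adjusted p = 0.00119), as it was after centring without control libraries 1 and 3 and 48 h library 1 (0.55 ± 0.08, limma adjusted p = 0.000908). Neither of the count models, edgeR and DESeq2, called psf-1. Of the alternative fits, 18 kept its call and 11 lost it. The other GINS genes did not pass on the deposited scale, at 0.23 for psf-2, 0.19 for psf-3 and 0.14 for sld-5.

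The gene tyms-1, which encodes thymidylate synthase (WBGene00022455; chromosome I, 5138250 to 5139382; transcript of 1033 bp), was the single gene of the 34 with a negative fold change on the deposited scale. It had 24.7, 22.2, 26.5 and 22.8 CPM at 48 h, against 23.8, 30.4, 31.9 and 36.3 CPM in control, so control library 1 lay within the 48 h range. The log2 fold change was -0.32 ± 0.13 (SE) and did not pass (limma, adjusted p = 0.146). After median centring, tyms-1 fell, with 25.8, 20.3, 22.97 and 20.3 centred CPM at 48 h, all below the 34.04, 28.4, 41.3 and 33.8 of control. This log2 fold change was -0.59 ± 0.12 (SE; 95% interval -0.86 to -0.33; limma, adjusted p = 0.0107). It remained past the threshold with the length trend removed (-0.51, limma adjusted p = 0.0019) and without the 3 libraries (-0.52, limma adjusted p = 0.00227). Both count models on the recovered reads called it too, with edgeR at -0.61 (adjusted p = 0.0115) and DESeq2 at -0.61 (adjusted p = 0.000145). Over the 34 genes, edgeR called 0 higher and 1 lower, against 5.1% and 6.45% of all genes, and DESeq2 called 1 higher (pcn-1) and 2 lower (orc-1 and tyms-1), against 7.37% and 8.97%. The other genes of nucleotide supply stood at 0.39 (rnr-1), 0.33 (dut-1) and 0.23 (rnr-2) on the deposited scale, and none passed there or after centring.

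The helicase genes had the highest median of the roles at 48 h, a log2 fold change of 0.57 on the deposited scale and 0.29 after centring, with all 7 above 0 on both scales and none called on either. For mcm-5, the 48 h libraries had 198, 267, 272 and 277 CPM and the control libraries 123, 229, 129.1 and 221 CPM. For mcm-7, they had 178, 267, 294 and 298 CPM at 48 h and 112, 245, 130 and 236 CPM in control. In both genes 48 h library 1 lay below control libraries 2 and 4, and the groups overlapped. The highest of them by CPM, mcm-4, had 260, 509, 523 and 529 CPM at 48 h and 175, 447, 220 and 437 CPM in control (0.57 ± 0.34, limma adjusted p = 0.278). With 48 h library 1 left out after centring, 4 of the 34 genes were called higher, mcm-2 (0.51), mcm-3 (0.42), mcm-5 (0.35) and pcn-1 (0.23), with tyms-1 lower. Of all genes, this fit called 7.36% higher and 7.78% lower.

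The number of calls among the 34 genes turned on the 3 libraries. Centred and without them, which leaves 3 libraries at 48 h and 2 in control, 7 of the 34 (20.6%) were called higher, against 12.6% of all 7612 genes tested, and 4 (11.8%) were called lower, against 11.8%. The 7 were psf-1 (0.55), pcn-1 (0.27), mcm-2 (0.27), mcm-3 (0.26), rpa-2 (0.25), mcm-5 (0.22) and mcm-7 (0.20). The 4 were tyms-1 (-0.52), orc-1 (-0.35), rfc-1 (-0.28) and rfc-2 (-0.17). Without centring, the same libraries gave 8 higher (15.5% of all genes) and 3 lower (8.47%), mcm-4 being added and rfc-2 lost. With all libraries kept and the length trend removed, 5 of the 34 (14.7%) were called higher, namely psf-1, pcn-1, mcm-3, mcm-5 and mcm-7, against 9.47% of all genes. The same fit called 2 (5.88%) lower, orc-1 and tyms-1, against 11.3% of all genes. The median of the helicase genes after centring was 0.20 without the 3 libraries.

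**Figure D3:**
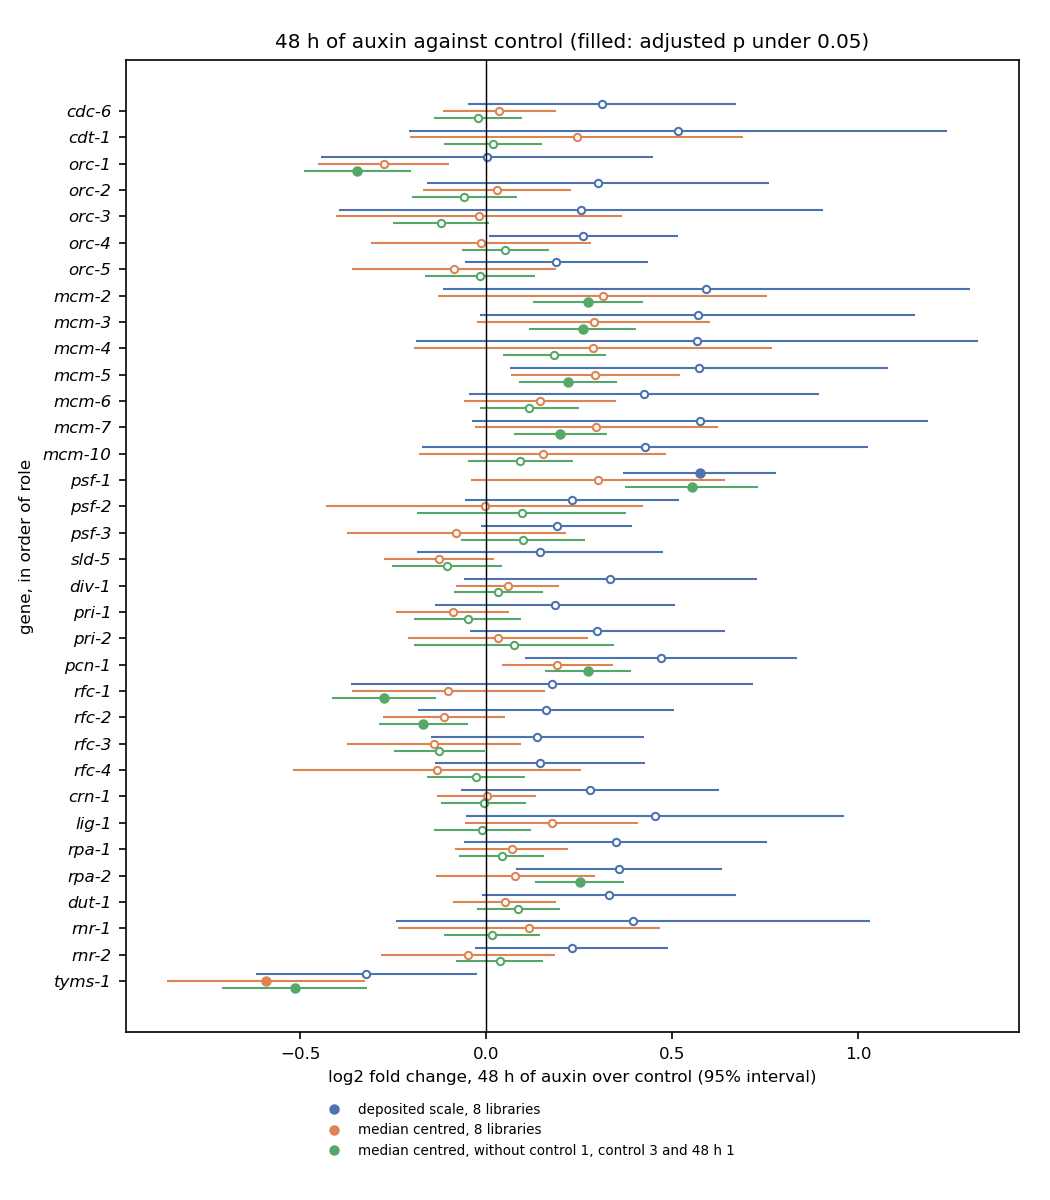
Log2 fold change of each gene at 48 h of auxin over control with its 95% interval, on the deposited scale, after median centring, and after centring without control 1, control 3 and 48 h 1. Filled points passed an adjusted p of 0.05: psf-1 on the deposited scale, tyms-1 after centring, and 7 higher and 4 lower genes in the set of fewer libraries, where the intervals are narrower.

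The direction of orc-1, the largest subunit of the origin recognition complex (WBGene00012650; chromosome III, 10643129 to 10646058), depended on the scale. It had 75.3, 85.9, 100.6 and 87.6 CPM at 48 h and 63.0, 117, 71.6 and 108 CPM in control, a log2 fold change of 0.00 ± 0.20 (limma, adjusted p = 0.997). After centring, the 48 h libraries had 78.7, 78.6, 87.0 and 78.2 centred CPM, all below the 90.2, 109, 92.5 and 100.5 of control, and the fold change was -0.28 ± 0.08 (limma, adjusted p = 0.0511). It passed with the length trend removed (-0.33, limma adjusted p = 0.00173), without the 3 libraries (-0.35 after centring, limma adjusted p = 0.00356) and by DESeq2 (-0.27, adjusted p = 0.0224), but not by edgeR (-0.27, adjusted p = 0.0598). The other genes of origin recognition and loading lay between 0.19 (orc-5) and 0.52 (cdt-1) on the deposited scale and between -0.09 (orc-5) and 0.24 (cdt-1) after centring, and none passed. The neighbour orc-4 had 76.0, 63.4, 67.1 and 65.4 CPM at 48 h, each above the 54.7, 61.9, 50.1 and 59.7 CPM of control (0.26 ± 0.11, limma adjusted p = 0.16), and was at -0.01 after centring.

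The clamp pcn-1 had 219, 269, 292 and 286 CPM at 48 h and 155, 220.3, 168 and 230.3 CPM in control, where 48 h library 1 lay within the control range. Its log2 fold change was 0.47 ± 0.17 (limma, adjusted p = 0.0949). After centring all 48 h libraries, at 228, 246, 253 and 255 centred CPM, lay above the control values of 222, 205, 218 and 215 (0.19 ± 0.07, limma adjusted p = 0.0985). The call was made with the length trend removed (0.29, limma adjusted p = 0.0401) and by DESeq2 (0.21, adjusted p = 0.00254). The genes of its loader had smaller fold changes on the deposited scale, 0.18 for rfc-1, 0.16 for rfc-2, 0.15 for rfc-4 and 0.14 for rfc-3, and all 4 were negative after centring, from -0.14 to -0.10, with none called. The deposited fold change was 0.35 for rpa-1 and 0.36 for rpa-2, 0.45 for lig-1 and 0.28 for crn-1. The priming genes stood at 0.33 (div-1), 0.30 (pri-2) and 0.18 (pri-1), and the values of these 7 after centring lay between -0.09 (pri-1) and 0.18 (lig-1), none called.

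**Figure D4:**
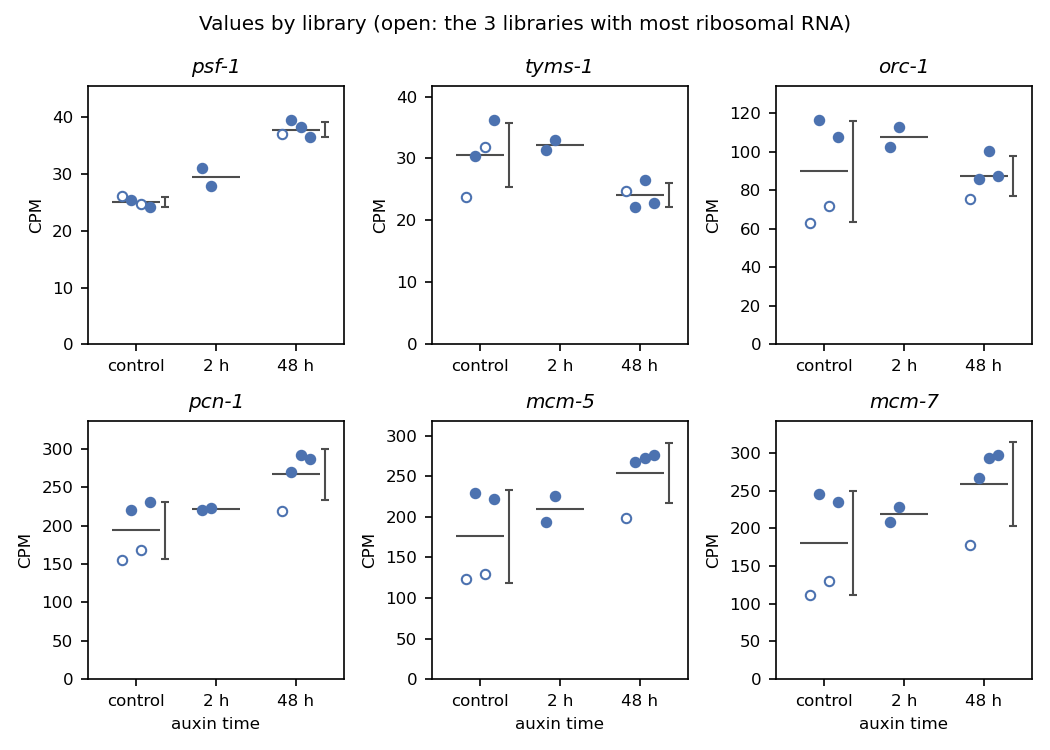
CPM of 6 genes in each library of the larger table by auxin time, with the group mean as a line and the SD as a bar where a group has 4 libraries; open points are control 1, control 3 and 48 h 1. The 48 h values of psf-1 lie above all control values, those of tyms-1 lie mostly below, and in orc-1, mcm-5 and mcm-7 the open points lie lowest in their groups.

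On the deposited scale, 5 of the 34 genes (14.7%) had all 48 h libraries above all control libraries, namely orc-4, psf-1, psf-3, rnr-2 and rpa-2, against 14.9% of all genes, and 0 had all below, against 3.67%. After centring, pcn-1 alone (2.94%) lay wholly above, against 8.29% of all genes, and orc-1, sld-5 and tyms-1 (8.82%) lay wholly below, against 9.54%. These shares were close to or below those of all genes.

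Between 48 h and 2 h of auxin, in the same table, limma called 0 of the 34 genes in either direction, on the deposited scale (0.872% of all genes higher, 1.98% lower) and after centring (1.35% higher, 3.23% lower). The 2 genes with the smallest p were psf-1 and tyms-1, and edgeR called 0 of the 34 in either direction (1.34% of all genes higher, 3.59% lower). DESeq2 called 1 higher, pcn-1 (0.27, adjusted p = 0.00185), against 2.75% of all genes, and 0 lower, against 4.72%. The median log2 fold change was 0.03 for the 34 genes and -0.02 for all genes. The psf-1 values of 37.0, 39.6, 38.3 and 36.5 CPM at 48 h were all above the 31.1 and 27.9 CPM of 2 h libraries 1 and 2 (0.35 ± 0.11, limma adjusted p = 0.17). The tyms-1 values of 24.7, 22.2, 26.5 and 22.8 CPM at 48 h were all below the 31.4 and 32.9 CPM at 2 h (-0.41 ± 0.16, limma adjusted p = 0.32). On the deposited scale psf-1, rnr-2 and rpa-2 (8.82%) lay wholly above their 2 h values, against 12.5% of all genes, and cdc-6, orc-1, rfc-1 and tyms-1 (11.8%) wholly below, against 14.8%. After centring 8 genes (23.5%) lay wholly above, against 15.1%, and 6 (17.6%) wholly below, against 14.6%. With 2 libraries at 2 h, such separation is frequent over all genes too. Without the 3 libraries and after centring, 8 genes (23.5%) were called higher against 10.7% of all genes, and 4 (11.8%) lower against 11.4%. The 8 were mcm-2 (0.41), mcm-4 (0.38), mcm-3 (0.35), mcm-7 (0.35), mcm-5 (0.34), psf-1 (0.32), pcn-1 (0.31) and rpa-2 (0.27), and the 4 were tyms-1 (-0.46), orc-1 (-0.27), cdc-6 (-0.22) and rfc-1 (-0.20). The comparisons with 2 h and with control share the 48 h libraries, so their values are not independent of each other.

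After 2 h of auxin, limma called 0 of the 34 genes against control in either direction, with 0.0% of all genes called higher and 0.0% lower. At an unadjusted p under 0.05, 1 of the 34 and 429 of all genes would pass, and edgeR and DESeq2 called 0 of the 34. Over all genes edgeR called 0.0% in each direction, DESeq2 0.312% higher and 0.0651% lower, and limma after centring 0.0% higher and 0.013% lower. All 34 fold changes were positive on the deposited scale (median 0.28, all genes 0.24), whereas 15 were positive and 19 negative after centring (median -0.01, all genes -0.01). The gene with the smallest p was cdc-6, which encodes a loader of the helicase. It had 97.1 and 100.7 CPM at 2 h, against 54.3, 83.9, 58.03 and 86.5 CPM in control, so both 2 h libraries lay above all controls (0.51 ± 0.20, limma adjusted p = 0.52). After centring the order was kept, with 90.7 and 90.8 centred CPM at 2 h and 77.8, 78.2, 75.0 and 80.7 in control (0.22 ± 0.08, limma adjusted p = 0.82). The second, psf-1, had 31.1 and 27.9 CPM at 2 h, above the 26.1, 25.4, 24.7 and 24.1 CPM of control (0.22 ± 0.11, limma adjusted p = 0.52), and its fold change was -0.06 after centring. Besides these, orc-4, psf-3 and rfc-4 did not overlap between the groups, making 5 of 34 genes (14.7%) wholly higher against 17.8% of all genes, and 0 were wholly lower, against 0.976%. After centring cdc-6 alone (2.94%) was wholly higher, against 6.01%, and crn-1, pcn-1 and rfc-2 (8.82%) wholly lower, against 5.78%.

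In the smaller table, limma called 0 of the 34 genes between 4 h and 2 h of auxin in either direction, with 0.178% of all 7301 genes called higher and 0.205% lower. After centring it called 0 again, with 1.22% of all genes higher and 1.0% lower. At an unadjusted p under 0.05, 11 of the 34 and 1133 of all genes would pass. Of the count models, edgeR called 0 of the 34 (1.53% of all genes higher, 1.66% lower), and DESeq2 called 0 higher (2.1%) and 2 lower, mcm-7 and rnr-1 (2.53%). The median log2 fold change was -0.13 for the 34 genes and -0.07 for all genes, and -0.05 and 0.00 after centring. The 4 h libraries 1 and 2 held 44.6% and 41.5% ribosomal RNA, against 37.7% to 39.0% in the other 4 libraries of this table, and the part of this in the fold changes was not tested.

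The gene with the smallest p in that comparison was rnr-1, the large subunit of ribonucleotide reductase. It had 189.7, 215, 228 and 214 CPM at 4 h, below the 247 and 257 CPM of 2 h libraries 3 and 4 (-0.25 ± 0.08, limma adjusted p = 0.197; DESeq2 -0.18, adjusted p = 0.042). The second was mcm-7, with 115, 127.01, 144 and 140.2 CPM at 4 h, below the 154 and 165 CPM at 2 h (-0.28 ± 0.09, limma adjusted p = 0.207; DESeq2 -0.20, adjusted p = 0.03). In both genes every 4 h library lay below both 2 h libraries, on the deposited scale and after centring. Leaving out 4 h library 3 after centring made mcm-7 the 1 gene of the 34 called (limma, adjusted p = 0.0423). In the 12 fits with 1 library left out, this was the only call among the 34, and 4 to 407 of all genes were called. The share of all genes in that single fit is not given here, so the call was not read as a result about mcm-7. On the deposited scale 16 of the 34 genes (47.1%) were wholly lower at 4 h, against 24.0% of all genes, and 1, pri-2 (2.94%), was wholly higher, against 6.16%. After centring 10 (29.4%) were wholly lower, against 15.4%, and mcm-3, pcn-1 and rpa-1 (8.82%) were wholly higher, against 17.1%. The 10 were crn-1, mcm-4, mcm-7, orc-1, orc-2, rfc-2, rfc-3, rnr-1, sld-5 and tyms-1, each with 4 libraries at 4 h against 2 at 2 h.

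Among the abundant genes of other roles, the fold changes were small and depended on the scale. The single-strand binding gene rpa-1 had 351, 359, 380.4 and 387 CPM at 4 h and 368 and 366 CPM at 2 h (0.01 ± 0.07), and pcn-1 had 190.4, 214, 219 and 217 CPM at 4 h and 202 and 199 CPM at 2 h (0.06 ± 0.07), and in both the groups overlapped. After centring both lay wholly above 2 h, rpa-1 with 383, 375, 367 and 378 centred CPM at 4 h against 350.4 and 356 at 2 h (0.09 ± 0.04, limma adjusted p = 0.231), and pcn-1 with 208, 224, 211 and 212 against 192 and 194 (0.15 ± 0.04, limma adjusted p = 0.0948). The priming gene div-1 had 60.4, 70.8, 65.1 and 65.0 CPM at 4 h, below the 71.7 and 71.6 CPM at 2 h (-0.13 ± 0.08), and the GINS gene sld-5 had 27.05, 27.8, 30.6 and 30.2 CPM at 4 h, below 35.1 and 31.9 CPM (-0.21 ± 0.09). None of these 4 passed on either scale.

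The ring subunits mcm-2 to mcm-7 act in equal number in the assembled helicase, and their transcripts were compared as shares of their summed CPM per kb, which do not change with the scaling of a library. With all libraries kept, the shares at 48 h differed from control by less than the SD between libraries for each subunit. The largest difference was in mcm-6, with 17.9 ± 1.88% at 48 h and 19.5 ± 1.95% in control (SD, n = 4 each), a difference of -1.59 points; the other 5 differed by 0.27 to 0.50 points. These differences turned on single libraries: with 1 library left out, that of mcm-6 ran from -2.52 to -0.69, that of mcm-4 from -0.64 to 1.26 and that of mcm-5 from -0.38 to 0.59 points. Without control 1, control 3 and 48 h 1, the difference was -1.09 points for mcm-6, -0.36 for mcm-4 and -0.059 for mcm-7. It was 0.70 points for mcm-2, 0.69 for mcm-3 and 0.12 for mcm-5. In these fewer libraries mcm-6 lay wholly below control, at 16.6% to 17.4% against 17.9% and 18.1%. The share of mcm-3 lay wholly above, at 18.5% to 19.2% against 18.1% and 18.3%. The other subunits overlapped. In the smaller table mcm-7 held 9.33 ± 0.33% at 4 h (n = 4, 9.03% to 9.66%) and 10.4 ± 0.38% at 2 h (n = 2, 10.2% and 10.7%), and the groups did not overlap. The share of mcm-7 was 13.2 ± 0.47% in the 2 h libraries of the larger table, so libraries with the same 2 h label differed between tables by more than the 4 h and 2 h libraries did within one. The labels give no reason for a difference between the tables.

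**Figure D5:**
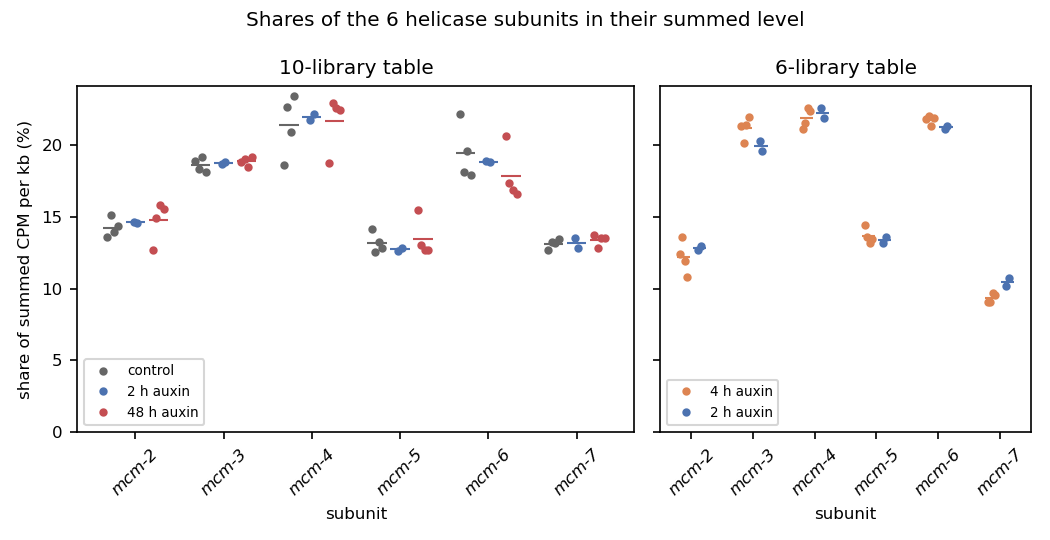
Share of each of the 6 ring subunits in their summed CPM per kb, as points per library with group means as lines, in the larger table (left) and the smaller (right). In the larger table the points of the 48 h and control groups overlap for every subunit, and in the smaller the 4 h points of mcm-7 lie below its 2 h points.

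The rest of the pathway was described from a list of 61 symbols, of which 49 were found and 46 tested. At 48 h against control, 2 rose and 2 fell of the 46 on the deposited scale, and 1 rose and 4 fell after centring, against the shares of all genes given above. After centring without the 3 libraries, 5 rose (cdk-1, cdk-2, chk-1, gmn-1 and top-2) and 6 fell (atic-1, pacs-1, cdc-25.1, ndk-1, mel-32 and gmps-1). The 2 that rose on the deposited scale were cell cycle kinases. The gene cdk-2 had 21.03 ± 1.6 CPM at 48 h and 12.6 ± 2.97 CPM in control (SD, n = 4 each; 0.72, limma adjusted p = 0.018, and called after centring too). The gene cdk-1 had 166 ± 9.16 CPM at 48 h and 118.8 ± 8.84 CPM in control (0.48, limma adjusted p = 0.025). The 2 that fell belong to purine synthesis and were read near the lower limit of the fit, atic-1 at 0.943 ± 0.087 CPM at 48 h and 3.17 ± 0.952 CPM in control (-1.08) and pacs-1 at 1.56 ± 0.067 CPM and 3.0 ± 0.596 CPM (-0.63). After centring, the phosphatase gene cdc-25.1 (-0.50) and the nucleoside diphosphate kinase gene ndk-1 (-0.48) were called lower as well. None of the 13 tested polymerase and fork genes (median 0.44, and 0.16 after centring) and none of the 8 genes of helicase unloading passed on either scale with all libraries kept. At 48 h against 2 h, 0 rose and 1 fell (atic-1) on the deposited scale. After centring 0 rose and 3 fell (atic-1, pacs-1 and cdc-25.1), and without the 3 libraries as well, 5 rose and 4 fell. The shares of all genes in these fits are given above. At 2 h against control none of the 46 passed on either scale with all libraries kept. Between 4 h and 2 h, 0 of the 46 passed on the deposited scale, and ddb-1, a part of the ubiquitin ligase that removes CDT-1, was called higher after centring (0.24, limma adjusted p = 0.026).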

How the data were processed

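RNA-seq of dissected germline tumors was deposited as 2 tables of normalised expression, one with 10 and one with 6 libraries. Per the submitters' processing notes, the tools were STAR 2.0.4b, featureCounts 1.4.5 with Subread, limma and edgeR; their roles, the build and the use of strand are not given in the sources at hand. The authors deposited signal values, read counts per gene divided by a library factor, whose columns sum close to those of CPM, and they are called CPM here. All nonzero values (100.0%) were whole multiples of 1 read within 0.1 read, so reads per gene were recovered. Of 46998 lines, 46536 were kept as 1 line per gene, and 46363 of these genes matched the WBcel235 annotation, which supplied positions and transcript lengths.

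Each table was tested with limma 3.58.1 (with an intensity trend) in R 4.3.3 on log2(CPM + 1), for genes with at least 1 CPM in at least 2 libraries, with Benjamini-Hochberg adjustment over all of them. Fold changes on this scale understate the change of low genes. Alternatives were pseudocounts of 0.5 and 0.1, no filter, a filter of 5 CPM, median centring over genes of at least 10 CPM, removal of a spline on transcript length (4 degrees of freedom), no trend, a replicate block, edgeR 4.0.16 (TMM, quasi-likelihood test) and DESeq2 1.42.0 on recovered reads, and leaving out libraries. Centring combined with left-out libraries was added after seeing the data. The tests were checked on simulated counts, drawn around a shared profile with low dispersion and no effect of ribosomal RNA or transcript length. That check therefore does not cover the differences between libraries seen here. A count of 0 allows up to 3 counts, or 0.0885 to 0.169 CPM by library, for counting error only. Replicates of a group are called biological in the series, and none matched within sampling noise (lowest chi-square per degree of freedom 4.00). P-values thus reflect how far these libraries vary.

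The members and gene lists were chosen with earlier results of these data known. Of 61 further pathway symbols, 12 did not match a gene name in the tables. Values per library are given for members called by limma on the deposited scale or after centring, else for the 2 with the smallest p, and for abundant members of the roles. The genes orc-1, orc-4, mcm-5, pcn-1 and others beyond this rule were named after their values were seen.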

Additional observations from a re-analysis of the deposited data

Results flagged for a closer look

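In 7 of 102 groups of 4 libraries checked among the 34 genes, 1 library lay far from the other 3, with a gap to the nearest library above Dixon's critical share of the group's range at 95%. Chance alone gives about 1 in 20 such groups if groups are independent. The 34 genes share the same libraries, so the 7 flags are not separate events to set against that rate. In all 7 it was 48 h library 1, the lowest, in which ribosomal RNA took 44.9% of the reads, and the part of this in the values was not tested. The gap took 0.949 of the range for mcm-6 (283 CPM, against 381 to 386 CPM in the other 48 h libraries), 0.927 for mcm-4 (260 CPM against 509 to 529 CPM) and 0.876 for mcm-5 (198 CPM against 267 to 277 CPM). It took 0.846 for mcm-3 (268 CPM against 433 to 464 CPM) and 0.901 for mcm-10 (50.1 CPM against 82.5 to 86.1 CPM). Outside the helicase genes it took 0.914 for orc-3 (38.6 CPM against 66.8 to 69.5 CPM) and 0.853 for rnr-1 (179.6 CPM against 288 to 307 CPM).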

How the results depend on the processing

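Most results moved with the scaling and with the 3 libraries rich in ribosomal RNA (control 1, control 3 and 48 h 1). At 2 h against control, the median log2 fold change of the 34 genes was -0.012 after centring, -0.027 with length removed as well, -0.027 without control 1 and 3 and without all 3 libraries, -0.041 without them after centring, and -0.029 to 0.39 with 1 library left out. The genes called over the whole table numbered 1 after centring, 4 with length removed, 29 by DESeq2, 26 without the 3 libraries on either scale, and 0 to 1 with 1 library left out. The fold change of psf-1 turned to -0.061 after centring, -0.077 by edgeR and -0.071 by DESeq2 (-0.17 to 0.30 with 1 library left out).

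At 48 h against control, members called higher were 0 after centring and by edgeR, 5 with length removed, 8 without the 3 libraries and 7 without them after centring (0 to 4 with 1 library left out). Members called lower were 1 after centring, by edgeR and without control 1 and 3, 2 with length removed and by DESeq2, 3 without the 3 libraries and 4 without them after centring (0 to 2). On the deposited scale, tyms-1 was also called lower without control 1, and pri-2 also higher without control 2. After centring, orc-1 was also called lower without control 1. Over all genes, 342 to 1158 were called in the fits with 1 library left out. These single calls were therefore not read as results about the genes. Over the whole table the 772 calls became 383 with the 5 CPM filter, 1593 with length removed, 1255 by DESeq2, 1825 without the 3 libraries and 1858 without them after centring (342 to 1158). The fold change of orc-1 was -0.28 after centring, -0.33 with length removed, -0.27 by edgeR and by DESeq2, -0.36 without control 1 and 3, -0.30 without the 3 libraries and -0.35 without them after centring (-0.31 to 0.14). That of rfc-1 was -0.10, -0.21, -0.11, -0.11, -0.30, -0.22 and -0.28 in the same order (-0.19 to 0.37).

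At 48 h against 2 h, members called higher were 3 with length removed, 1 by DESeq2 and 8 without the 3 libraries on either scale, and members called lower were 2 with length removed, 1 without the 3 libraries and 4 without them after centring. The 219 calls over all genes became 42 with the 5 CPM filter, 352 after centring, 694 with length removed, 379 by edgeR, 574 by DESeq2, 380 without control 1 and 3, 1561 without the 3 libraries and 1686 without them after centring (39 to 335). At 4 h against 2 h, DESeq2 called 2 members lower (0 to 1 with 1 library left out). The 28 calls over all genes became 9 with no filter, 162 after centring, 267 with length removed, 10 without the trend, 233 by edgeR and 338 by DESeq2 (4 to 407). The causes were not tested.

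Deviations of same-numbered libraries from the group means correlated at 0.81, 0.62, -0.47 and 0.70 between 48 h and control, at 0.60 and 0.69 between 2 h and control, and at 0.64 and 0.49 between 48 h and 2 h. Since 1 of the 4 pairs of 48 h and control was below 0 and the others number 2 each, the libraries were not taken as pairs. Although 7 of these 8 correlations were positive, they are not separate evidence, since the deviations of 2 libraries from their own mean are exact opposites. The part of the 3 libraries rich in ribosomal RNA in these correlations was not tested. With the replicate number as a block, psf-1 was again the 1 member called at 48 h against control, with 1083 calls over all genes against 772. At 4 h against 2 h the block gave 1 member higher (pcn-1) and 5 lower (mcm-2, mcm-7, orc-1, rfc-1 and rnr-1), with 644 calls against 28, although same-numbered libraries there correlated at 0.10 and -0.04. The 4 h libraries 1 and 2 have no 2 h library of the same number in that comparison. With the block it thus rests on libraries 3 and 4 of each group, which leaves little from which to estimate the spread. Every member had at least 67 reads in each library; for psf-2, which had the fewest, counting error limits precision as well.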
